A study of Homo sapiens with 30 samples.

Results

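Of 4255 consolidated binding regions of the PRC1 ubiquitin ligases RING1 and RNF2 in wild-type human neural progenitor cells, 2528 (59.4%) are narrow regions at gene ends, and these are described here. They were chosen by 4 criteria: a width under 5000 bp, overlap with a RING1 peak of 1 replicate list, no overlap with a RING1 peak of the other list, and a position within 2 kb of either annotated end of a protein-coding gene. The choice thus used the RING1 calls, the width and the position at gene ends, and the consolidated file adds a further condition: all 2528 regions carry an RNF2 peak in both replicate lists. Gene positions were taken from RefSeq (GRCh38.p14).

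The series holds 30 CUT&RUN libraries of a neural progenitor monolayer derived from the human embryonic stem cell line H9, over 5 genotypes (wildtype, RING1ms/ms, RING1+/ms, RING1-/- and RNF2ms/ms) and antibodies against RING1, RNF2, H2AK119ub1 and IgG. In CUT&RUN an antibody brings a nuclease to the protein of interest, and the DNA cut out around it is sequenced. All values below come from 4 broad peak lists of wildtype cells, 2 for RING1 and 2 for RNF2; the other libraries, among them all edited genotypes and H2AK119ub1, were not analysed here. The lists come in pairs called set A and set B, the labels do not say which replicate each set is or whether replicates were separate cultures, and no source used here gives the depth of the libraries.

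PRC1 places a single ubiquitin on histone H2A, the mark H2AK119ub1, and RING1 and RNF2 are its alternative catalytic subunits. In canonical PRC1 a CBX protein reads the H3K27me3 mark of PRC2, and such complexes gather on broad domains over silent developmental genes such as the HOX clusters. Variant PRC1 complexes are recruited without that mark, for example by KDM2B at unmethylated CpG islands or by E2F6 and MGA at germline genes, and CpG islands lie at the promoters of most widely expressed genes.

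The promoters of 9 genes at these regions are printed because each lies in a narrow region, where the peaks were called. MPP2, ESRRA, MED11, ODAD1 and CEP85 stand at the regions with the highest RNF2 in both sets, and NHEJ1, E2F6 and WNT6 lead the lists of break repair, Polycomb and developmental signalling genes. TDRKH is the germline gene with the highest RNF2 among those whose listed promoter lies in the region. Each sequence holds 250 bases before and 50 from the RefSeq transcription start, 5′ to 3′ on the strand of the gene, with every CpG dinucleotide in capitals.
MPP2 (chr17:43907487-43907786, minus strand): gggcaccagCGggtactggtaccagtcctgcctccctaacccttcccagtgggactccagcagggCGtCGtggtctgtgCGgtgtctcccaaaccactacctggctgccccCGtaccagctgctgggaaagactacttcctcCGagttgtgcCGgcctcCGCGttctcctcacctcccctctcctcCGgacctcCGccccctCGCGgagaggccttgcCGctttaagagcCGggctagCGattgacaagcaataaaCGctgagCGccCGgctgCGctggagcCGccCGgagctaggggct
ESRRA (chr11:64305274-64305573, plus strand): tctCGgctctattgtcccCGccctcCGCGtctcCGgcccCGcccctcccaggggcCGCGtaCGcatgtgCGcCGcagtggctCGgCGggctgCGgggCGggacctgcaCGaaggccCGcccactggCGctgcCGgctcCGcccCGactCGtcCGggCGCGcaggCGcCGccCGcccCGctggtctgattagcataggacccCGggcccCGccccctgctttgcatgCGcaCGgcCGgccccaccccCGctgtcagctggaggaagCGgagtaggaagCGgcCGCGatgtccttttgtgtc
MED11 (chr17:4731178-4731477, plus strand): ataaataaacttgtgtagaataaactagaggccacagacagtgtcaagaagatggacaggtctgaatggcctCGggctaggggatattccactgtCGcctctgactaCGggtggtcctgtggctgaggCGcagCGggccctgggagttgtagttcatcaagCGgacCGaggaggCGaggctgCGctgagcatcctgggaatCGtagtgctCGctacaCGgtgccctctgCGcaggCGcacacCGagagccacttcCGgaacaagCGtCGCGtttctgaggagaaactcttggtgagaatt
ODAD1 (chr19:48321922-48322221, minus strand): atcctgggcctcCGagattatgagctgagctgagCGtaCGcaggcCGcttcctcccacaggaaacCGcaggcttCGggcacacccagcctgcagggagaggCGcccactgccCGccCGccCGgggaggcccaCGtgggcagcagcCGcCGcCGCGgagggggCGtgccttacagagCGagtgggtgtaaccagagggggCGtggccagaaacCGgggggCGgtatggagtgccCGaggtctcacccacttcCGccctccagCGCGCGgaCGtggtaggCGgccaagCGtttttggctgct
CEP85 (chr1:26233950-26234249, plus strand): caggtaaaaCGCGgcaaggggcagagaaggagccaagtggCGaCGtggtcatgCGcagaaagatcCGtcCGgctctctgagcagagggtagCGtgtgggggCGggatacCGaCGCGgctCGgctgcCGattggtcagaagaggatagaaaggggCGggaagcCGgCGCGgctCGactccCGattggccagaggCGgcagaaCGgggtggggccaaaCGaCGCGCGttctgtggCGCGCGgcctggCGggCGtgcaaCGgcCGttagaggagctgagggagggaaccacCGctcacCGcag
NHEJ1 (chr2:219160506-219160805, minus strand): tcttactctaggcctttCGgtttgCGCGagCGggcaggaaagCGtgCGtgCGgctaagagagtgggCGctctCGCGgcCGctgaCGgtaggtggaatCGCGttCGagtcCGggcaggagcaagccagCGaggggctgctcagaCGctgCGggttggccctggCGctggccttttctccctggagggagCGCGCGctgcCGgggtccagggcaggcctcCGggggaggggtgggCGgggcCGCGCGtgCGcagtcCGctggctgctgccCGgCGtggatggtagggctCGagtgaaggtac
E2F6 (chr2:11466112-11466411, minus strand): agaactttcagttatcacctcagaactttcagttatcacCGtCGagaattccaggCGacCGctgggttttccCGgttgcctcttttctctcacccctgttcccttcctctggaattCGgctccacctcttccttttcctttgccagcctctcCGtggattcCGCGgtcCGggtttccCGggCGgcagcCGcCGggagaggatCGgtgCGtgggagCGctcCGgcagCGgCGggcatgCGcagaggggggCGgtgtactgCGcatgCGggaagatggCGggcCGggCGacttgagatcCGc
TDRKH (chr1:151790485-151790784, minus strand): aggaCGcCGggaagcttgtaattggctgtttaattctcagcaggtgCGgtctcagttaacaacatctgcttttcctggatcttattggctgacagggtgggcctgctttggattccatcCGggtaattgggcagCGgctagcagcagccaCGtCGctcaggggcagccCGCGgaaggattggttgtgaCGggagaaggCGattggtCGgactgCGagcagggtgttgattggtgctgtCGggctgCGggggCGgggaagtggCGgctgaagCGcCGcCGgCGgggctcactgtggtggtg
WNT6 (chr2:218859555-218859854, plus strand): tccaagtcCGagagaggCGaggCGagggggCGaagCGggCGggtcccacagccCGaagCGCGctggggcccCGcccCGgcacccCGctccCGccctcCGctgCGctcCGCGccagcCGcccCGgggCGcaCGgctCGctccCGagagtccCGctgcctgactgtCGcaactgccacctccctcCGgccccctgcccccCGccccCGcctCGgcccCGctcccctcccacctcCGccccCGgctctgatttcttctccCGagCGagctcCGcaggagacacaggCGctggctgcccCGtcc
The 9 stretches held between 19 and 39 CpG dinucleotides in 300 bases. MED11 had the fewest and ESRRA the most, and the ratio of observed to expected CpG ran from 0.687 at MPP2 to 1.10 at CEP85. The motif GGGCGG or its reverse complement, the letters bound by SP and KLF factors, was present in 8 of the 9, with MED11 the exception. The E2F letters TTCCCGC were found at CEP85 and at E2F6 itself.

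The narrow regions at gene ends were small and numerous. Their median width was 1923 bp, with quartiles of 1357 and 2774 bp and a range of 362 to 4998 bp, and together they covered 5.43 of the 16.9 Mb of all consolidated regions. The remaining regions fell into 596 narrow regions away from gene ends, 419 wide regions with RING1 in set A only, 306 regions with RING1 in both sets, and 406 regions without a RING1 peak. Median widths were 1921 bp for the narrow regions away from gene ends, 6790 bp for the wide regions, 16728.5 bp for regions with RING1 in both sets and 1276 bp for those without RING1. The members closest below the width limit were the regions of NPY (4992 bp), CABLES1 (4993 bp) and NEFL (4998 bp), and the regions closest above it those of NEK8, RPL23A and TLCD1 (5001 bp), INSRR (5002 bp) and DMPK with SIX5 (5003 bp). RNF2 fold enrichment in set A was 5.62, 4.29 and 6.66 for the 3 inside and 7.68, 4.64 and 7.48 for the 3 outside.

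RNF2 and RING1 peaks at these regions were somewhat above the middle of their lists and far below the top. The fold enrichment is the authors' ratio of signal to background for the highest peak that overlaps a region, and it describes regions within 1 list. RNF2 in set A had a median of 4.86 (range 2.91 to 13.0), RNF2 in set B a median of 3.78 (2.801 to 7.35), and RING1 in set A a median of 4.39 (3.02 to 10.8). Over all peaks of the same 3 lists the medians were 4.04, 3.69 and 3.99 and the maxima 20.3, 12.8 and 14.2. The 10th and 90th percentiles were 3.75 and 7.08 for RNF2 in set A, 3.31 and 4.67 for RNF2 in set B, and 3.55 and 6.17 for RING1 in set A. The q-value was strong, with a −log10 q of at least 5, at 1070 regions (42.3%) for RNF2 in set A, at 124 (4.91%) for that of set B and at 547 (21.6%) for RING1 of set A. The RNF2 peaks of set A spanned most of each region, with a median of 97.2% of its bases, while RING1 peaks of set A covered 62.8% and RNF2 peaks of set B 49.1%.

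In level, the narrow regions at gene ends were close to the narrow regions elsewhere and lay below the wide ones. The narrow regions away from gene ends had medians of 4.76 and 3.70 for RNF2 in sets A and B and of 4.34 for RING1 in set A. Wide regions had 5.75, 4.23 and 5.00, and the regions with RING1 in both sets 10.9, 6.03 and 8.01. Regions without RING1 had RNF2 medians of 3.81 and 3.59, and all consolidated regions 4.93 and 3.82. Because RING1 calls and width defined the classes and each peak had to pass a call, these levels are a description without a test.

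**Figure D1:**
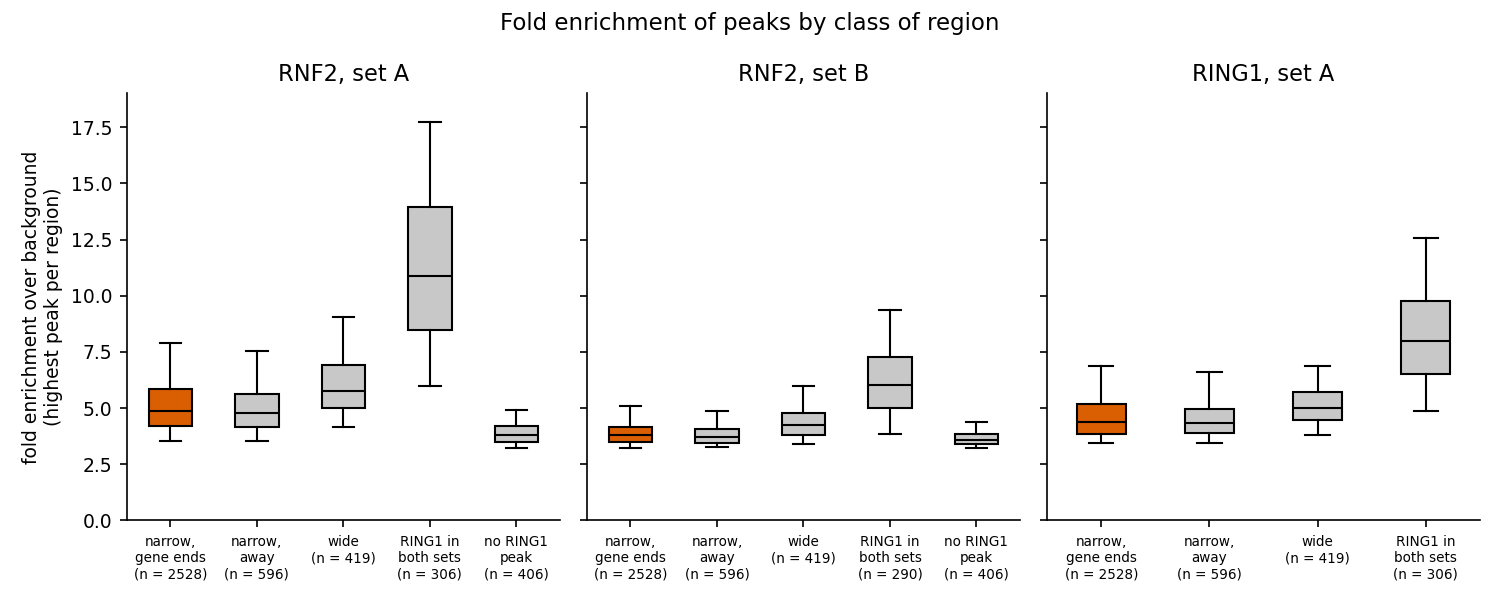
Fold enrichment (linear axis, authors' ratio of signal to background, highest peak per region) for RNF2 of sets A and B and RING1 of set A in 5 classes of consolidated region. Boxes span the quartiles with the median as a line, and whiskers run from the 5th to the 95th percentile; the narrow regions at gene ends (orange) have medians of 4.86, 3.78 and 4.39, and the regions with RING1 in both sets 10.9, 6.03 and 8.01.

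Among the members, the order of regions was shared between the antibodies of set A more than between the RNF2 lists of both sets. Over the 2528 regions Spearman's rho was 0.687 between RING1 and RNF2 of set A, 0.309 between RNF2 of the 2 sets, and 0.285 between RING1 of set A and RNF2 of set B. In the regions with RING1 in both sets the same 3 values were 0.909, 0.566 and 0.599. These correlations are across regions, which are no replicates. The lists of a set carry the same number in their names, and no source used here says whether they share a control. The folds of set A also span a wider range than those of set B. Width went with level only weakly inside the class: the median RNF2 fold enrichment of set A was 4.63 in 254 regions under 1 kb, 4.84 in 1088 regions of 1 to 2 kb, 4.79 in 666 of 2 to 3 kb, 4.98 in 349 of 3 to 4 kb and 5.25 in 171 of 4 to 5 kb.

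**Figure D2:**
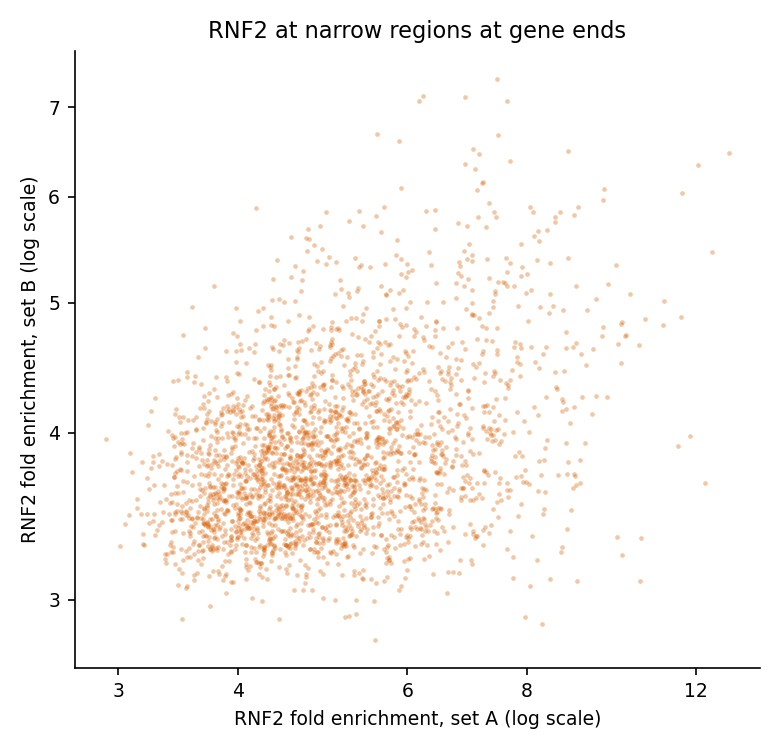
RNF2 fold enrichment of set B against set A, on log axes, with 1 point for each of the 2528 narrow regions at gene ends. The cloud is broad (Spearman's rho of 0.309 across regions) and reaches 13.0 in set A and 7.35 in set B.

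The regions ranked highest by the smaller of both RNF2 values stood at genes of varied function. MPP2, a membrane-associated guanylate kinase of synapses, ranked first, with RNF2 at 7.44 (set A) and 7.35 (set B) and RING1 at 6.75 (chr17:43905585-43908737). At the shared region of CATSPERZ and ESRRA, the latter the nuclear receptor ERR-alpha, RNF2 was 7.63 and 7.08 and RING1 5.53 (chr11:64304263-64306780). CXCL16, a chemokine, and MED11, a Mediator subunit, shared a region of 975 bp with RNF2 at 6.89 and 7.12 and RING1 at 6.01 (chr17:4730907-4731881). For these 3 regions both sets gave close RNF2 values.

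ODAD1, a dynein docking factor of motile cilia, had RNF2 at 7.45 and 6.67 and RING1 at 4.89 (chr19:48320352-48322441). CEP85, a centrosomal protein, had RNF2 at 7.02 and 6.52 and RING1 at 7.83 (chr1:26233623-26235201). ATP2A1, a calcium pump of the sarcoplasmic reticulum, held the highest RNF2 of set A, 13.0, with 6.47 in set B and RING1 at 10.3 (chr16:28878822-28880658). UBE2Q1, a ubiquitin-conjugating enzyme, showed a similar gap, with RNF2 at 12.04 (set A) and 6.34 (set B). AXIN1, the scaffold of the beta-catenin destruction complex, had RNF2 at 6.89 and 6.34 and RING1 at 8.40. The other 4 regions of the first 12 belonged to PCSK4 with REEP6, CDCA3 with USP5, FKBP2 with PPP1R14B and LOC114841035, and the mitochondrial carrier SLC25A39; their smaller RNF2 values lay between 6.29 and 6.49.

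At the other end of the ranking were regions called close to the limit in set B, where their −log10 q lay between 1.21 and 1.43 in a list that starts at 1.01. EPOR, the erythropoietin receptor, and SWSAP1 shared the region with the lowest set B value, 2.801, while RNF2 in set A was 5.55 and RING1 8.68 there. TMEM18 had RNF2 at 8.28 (set A) and 2.88 (set B); the set B value is what placed it among the lowest. WDR5, a subunit of histone methyltransferase and PRC1 complexes, was low in all lists, with RNF2 at 3.49 and 2.91 and RING1 at 3.61. PRDX4, a peroxiredoxin, and the pair ATP6V1D and EIF2S1 completed the lowest 5, with 2.91 and 2.90 in set B.

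RING1 of set A was highest at the pair CCT3 and TSACC, a chaperonin subunit and a kinase cochaperone, at 10.8, with RNF2 at 9.63 and 6.08. NFKBIB, an inhibitor of NF-kappaB, and the deacetylase SIRT2 shared a region with RING1 at 10.7 and RNF2 at 10.2 and 4.73. ZBTB3, ADAMTSL5 and ATP2A1 followed with RING1 at 10.6, 10.4 and 10.3. None of these 5 regions overlapped a RING1 peak of set B, which the choice of members requires.

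The rule did not ask which end of the gene a region touches, and where the strand is known most regions lay at the start. A listed transcription start lay within 2 kb of 2000 of the 2528 regions (79.1%), and 1910 regions held a start within their own bounds. Over all consolidated regions the share was 68.4%, but the members had to lie near a gene end, which raises their share, so nothing is read from that difference. RefSeq starts were used for 15842 of 20037 protein-coding genes and for none on chromosome 8, which holds 109 of the narrow regions. Those regions are therefore counted as without a start here, and their 134 genes enter no value on starts, promoters or motifs; in all, 435 regions had neither a known start nor a known 3′ end. Among the 1986 regions whose genes all had a listed start, 1890 (95.2%) had a start within 2 kb, of which 1588 had only a start and 302 also the 3′ end of a gene. A 3′ end alone was near 60 regions, and 36 had neither a listed start nor a 3′ end within 2 kb. The same share was 95.5% for wide regions, 96.3% for regions with RING1 in both sets and 94.98% for regions without RING1, close to the 95.2% of the narrow class.

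The 60 regions at a 3′ end only were near the start regions in width and in RNF2 of set B, and somewhat above them for both antibodies of set A. Their median RNF2 fold enrichment was 5.31 and 3.71 for sets A and B, against 4.85 and 3.76 at the 1588 regions with a start only. Median RING1 in set A was 4.54 against 4.36, and median widths were 1831 and 1832 bp. Regions at 3′ ends included those at GARNL3 and RALGPS1 (RNF2 7.003 and 5.002) and at COPZ2 (7.78 and 4.67), chosen here after their values were seen.

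Peaks were centred on the start. At 1696 regions with the start of a single gene, the region's centre lay a median of 17 bp downstream of the start, with quartiles of -244.5 and 325 bp. Median centres of the peaks were -36.5 bp for RING1 of set A and, for RNF2, 10.5 bp in set A and -18 bp in set B, with negative values upstream. Of these regions 1610 (94.9%) contained the start, reaching a median of 874.5 bp upstream and 938 bp downstream. In all 3 lists the median centre was thus close to the start relative to these reaches.

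**Figure D3:**
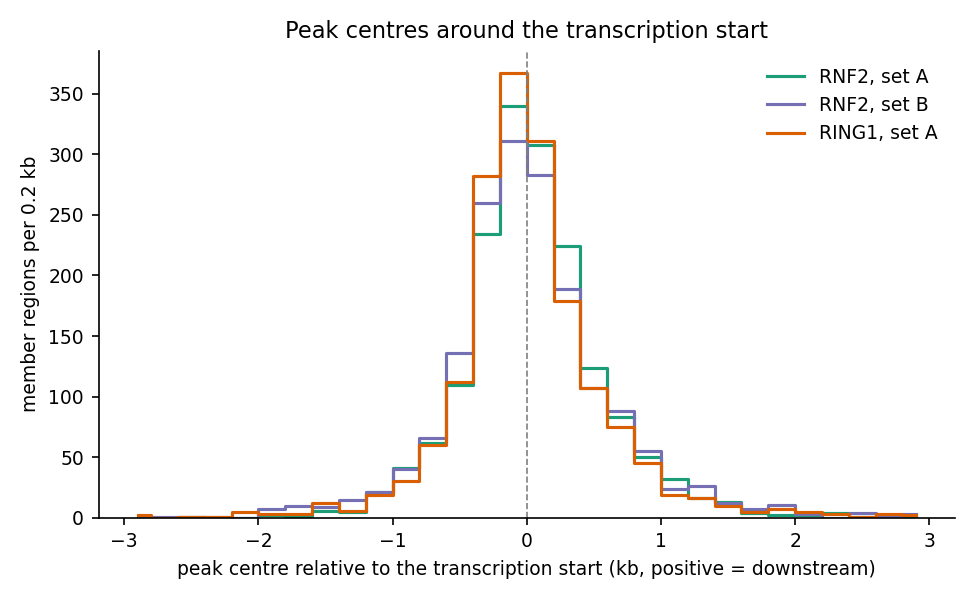
Position of the peak centre relative to the transcription start (x axis in kb, positive values downstream), as the number of narrow regions per 0.2 kb, for RNF2 of sets A and B and RING1 of set A at 1696 regions with the start of a single gene. All 3 lines are highest in the bin just upstream of the start, with median centres of 10.5, -18 and -36.5 bp.

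Some of the narrow regions covered paired promoters. Of the 1910 that held a start, 196 (10.3%) held the starts of 2 genes transcribed away from each other within 1000 bp, with a median gap of 218 bp between the starts. That share was 4.37% for regions with RING1 in both sets, 1.49% for wide regions, 6.64% for regions without RING1 and 8.10% for all regions. It was 0.556% for narrow regions away from gene ends, where the definition leaves out most annotated starts.

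The 2528 regions touched 3158 protein-coding genes, 15.8% of the 20037 annotated. A single gene lay near 1867 regions (73.9%), 2 genes near 591, 3 near 61 and 4 near 8. A single region of 2922 bp on chromosome 5 counted for 23 genes: DIAPH1, a formin, and 22 genes of the PCDHG protocadherin cluster, whose annotated ends coincide at the shared last exons. Its RNF2 values were 5.86 and 3.88 and its RING1 value 4.25. The 4 next were the regions of FKBP2, LOC114841035, PPP1R14B and VEGFB; of EME2, MAPK8IP3, MRPS34 and NME3; of CLDN6, HCFC1R1, THOC6 and TNFRSF12A; and of ACD, CARMIL2, ENKD1 and PARD6A. Genes near 1 region share its value and are not separate observations.

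Few genes had both a narrow region and a region of another class with RING1. Of 339 genes at regions with RING1 in both sets, 8 (2.36%) were also at a narrow region at a gene end, as were 25 (5.91%) of 423 genes at wide regions, against 15.8% of all genes. A region belongs to 1 class by definition, so an overlap needs a gene near 2 regions. Of all protein-coding genes 1.69% were at regions with RING1 in both sets and 2.11% at wide regions, and the counts of the gene lists in these classes are read against those shares. The narrow class accounted for most of the genes of the RNF2 list of set B, 71.2% of 4343, and for 34.2% of the 9144 genes of the RING1 list and 28.0% of the 11236 genes of the RNF2 list of set A. Genes at narrow regions had a median length of 23.9 kb, against 24.1 kb for all genes and 9.62 kb for genes at regions with RING1 in both sets.

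The share of genes with such a region differed between chromosomes. It was 20.8% on chromosome 17, 20.7% on 19 and 20.6% on 16, and 5.54% on the X, 8.79% on 21 and 0% on the Y. The peak lists themselves were thin on the X: 33.1% of its genes had an RNF2 peak in set A and 9.67% in set B, against 59.4% and 27.2% on chromosome 17. None of the 63 genes of the Y had a peak in either RNF2 list or in the RING1 list of set A. Nothing about binding is read from the 0% on the Y. For chromosome 19 the RNF2 shares, 56.9% and 23.8%, were close to those of all genes, 56.1% and 21.7%.

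HOX and other homeobox genes, which encode developmental transcription factors, were mostly at regions that the choice of members leaves out. None of the 39 HOX genes was at a narrow region, and all 39 were at regions with RING1 in both sets. Of 142 other homeobox genes, 7 (4.93%, against 15.8% of all genes) were at a narrow region. Of the same 142, 74 were at regions with RING1 in both sets and 26 at wide regions. The rule excludes both classes, so nothing is read from the low share. The 7 were CUX2, NOTO, PBX3, PHOX2A, PITX3, POU2F1 and SIX4. Here and in the other lists, the gene that comes first or leads is the one with the highest smaller-of-both RNF2 value. PBX3, a cofactor of HOX proteins, came first, with RNF2 at 7.43 and 5.80 and RING1 at 8.54, and POU2F1, the widely expressed factor OCT1, had 5.84, 4.06 and 6.29.

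Forkhead, SOX and T-box genes and bHLH genes stood near the 15.8% of all genes, and which side of it they were on changed with the setting. Forkhead, SOX and T-box genes had a narrow region in 11 of 81 cases (13.6%; with a window of 5 kb 18.5%, against 17.7% of all genes), and 26 were at regions with RING1 in both sets. SOX12, a neural SOXC factor, had RNF2 at 6.91 and 4.95, and FOXO6 had 4.90 and 4.78. Among 63 bHLH genes the count was 11 (17.5%; with starts only 14.3%, against 14.5% of all genes), led by HES6, a HES-family modulator of neurogenesis, with RNF2 at 5.88 and 6.60 and RING1 at 5.19. NPAS4, an activity-dependent neuronal factor, had a region of 881 bp with RNF2 at 10.1 and 4.72. At HES6 RNF2 was higher in set B than in set A, the reverse of the members' medians.

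Signalling genes were more frequent at narrow regions than genes in general. Of 129 genes of the WNT, BMP, FGF and Hedgehog pathways 36 (27.9%, against 15.8% of all genes) were at a narrow region, 3 (2.33%, against 1.69%) were at regions with RING1 in both sets, and 69 had no consolidated region. Among ligands these were 4 of 19 WNT genes (WNT2, WNT6, WNT9A and WNT10B), 5 of 22 FGF genes and 10 of 24 BMP, GDF and TGFB genes. Among receptors 4 of 10 FZD genes (FZD2, FZD4, FZD5 and FZD7) and FGFR3 of the 4 FGF receptors were counted, and 3 of 8 SFRP and DKK antagonists. GLI1 and GLI2, effectors of Hedgehog signalling, were at narrow regions and GLI3 was not. These families were separated after the count of the list was known.

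WNT6 led this list with RNF2 at 5.57 (set A) and 5.80 (set B) and RING1 at 5.47. Its promoter, printed above, had a GC content of 78%. FGF19, an endocrine fibroblast growth factor, had RNF2 at 6.01 and 4.56 and RING1 at 5.26. The region that GLI1 shares with INHBE had 5.96, 4.53 and 5.45.

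Axon guidance genes had the highest share of the 27 lists as counted here, with windows of 1 and 5 kb and over CpG-rich promoters; with transcription starts only, housekeeping genes stood above them (37.1% against 33.9%). Of 73 genes 25 (34.2%, against 15.8% of all genes) were at a narrow region. Of the 73, 8 were at wide regions and none at regions with RING1 in both sets. Ephrins, the membrane-bound ligands, counted 6 of 8 genes, and their Eph receptors 6 of 14. Plexins, the semaphorin receptors, counted 4 of 9, semaphorins 5 of 20 and the netrin receptors of the UNC5 family 2 of 4, while none of the 7 SLIT and ROBO genes was counted. These families were separated after the counts of the list were known.

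EFNA4 had RNF2 at 7.75 and 4.63 and RING1 at 5.54 in a region it shares with ADAM15 and the readthrough gene EFNA4-EFNA3. EFNB2 had 6.09, 4.60 and 5.52 in a region of 1248 bp, and PLXNA1 4.76, 4.32 and 4.85. The 25 regions of the list had median RNF2 values of 4.50 and 3.80, near the 4.86 and 3.78 of all members. Narrow regions were thus frequent among the genes of the list, but their RNF2 was not high among the members.

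Receptors and channels of neurons were also among the genes at narrow regions. None of 103 neurotransmitter receptor genes was at a region with RING1 in both sets. A narrow region was near 26 of them (25.2%, against 15.8% of all genes). Ionotropic glutamate receptors made up 11 of these, out of 18 such genes, while 2 of 8 metabotropic glutamate receptor genes, 6 of 21 GABA receptor genes, 3 of 21 acetylcholine receptor genes and 4 of 31 monoamine receptor genes were counted, and none of 4 glycine receptor genes. These receptor families, too, were separated after the count of the list was known. With transcription starts only, the receptor list stood at 18.4%, against 14.5% of all genes. GRIA4 and GRIA2, AMPA receptor subunits, had RNF2 at 4.99 and 4.53 and at 4.40 and 4.26. Potassium channels were counted in 19 of 96 cases (19.8%), with KCNA3 at 9.68 and 4.25. Calcium and sodium channels were counted in 9 of 40 (22.5%), with CACNA1G, a T-type calcium channel, at 5.37 and 5.33. With starts only, potassium channels stood at 15.3% and calcium and sodium channels at 23.1%, against the same 14.5%.

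Cadherins and synaptic adhesion genes were at narrow regions in 20 of 75 cases (26.7%, against 15.8% of all genes). With transcription starts only, the share was 17.3%, against 14.5% of all genes. CELSR3, an atypical cadherin of axon tracts, had RNF2 at 9.24 and 4.94 and RING1 at 8.13. The group also held CELSR1 and CELSR2, so that all 3 CELSR genes were counted. Solute carriers were counted in 72 of 379 cases, among them SLC2A4, the insulin-responsive glucose transporter, with RNF2 at 11.6 and 6.04, and collagens in 6 of 44 (13.6%).

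Genes of general cell function were also found at narrow regions. Of 40 housekeeping genes 13 (32.5%, against 15.8% of all genes) were at a narrow region. None was at any wide region or region with RING1 in both sets, classes that hold 2.11% and 1.69% of all genes. Glycolytic enzymes were among the 13. ALDOA had RNF2 at 8.06 and 5.90 and RING1 at 7.66. GAPDH, in a region shared with NCAPD2, had 6.33, 4.64 and 5.64. ENO1, PKM and TPI1 were also counted. Cell cycle and replication genes were counted in 18 of 75 cases (24.0%), including the origin licensing genes CDC6, CDT1, MCM4, MCM5 and MCM8, the cyclins CCNA1, CCND3, CCNE1 and CCNE2, and PCNA.

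Ribosomal protein genes were counted in 16 of 84 cases and genes of mitochondrial translation and respiration in 27 of 149 (18.1%), both near the 15.8% of all genes. RPLP2 had RNF2 at 6.04 and 5.00, and NDUFA11, a complex I subunit, had 10.01 and 4.82 with RING1 at 8.70. Replication-dependent histone genes were counted in 9 of 69 cases (13.0%) from 5 regions. ZNF genes were counted in 66 of 509 cases (13.0%), led by ZNF628 with RNF2 at 8.66 and 5.84. None of 392 olfactory receptor genes and none of the 149 genes of the keratin list had a narrow region. Of genes with a listed start, 4 of 314 olfactory receptor genes and 0 of 114 in the keratin list had CpG-rich promoters. CpG-rich is meant as defined with the promoter values. Whether this bears on the absence of narrow regions was not tested.

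Repair genes, which the title of the series names, were counted about as often as other genes. Of 71 double-strand break repair genes 11 (15.5%) were at a narrow region, a share at the 15.8% of all genes. They were the end-joining genes NHEJ1, PRKDC, XRCC5 and POLM, the replication protein RPA2, the checkpoint kinase CHEK1, the Fanconi genes FANCE and FANCG, MAD2L2, and the nucleases GEN1 and MUS81. NHEJ1, the ligation factor XLF, had RNF2 at 8.12 and 5.84 and RING1 at 7.52, and ranked 29 of 2528 by the smaller RNF2 value. The region also lies within 2 kb of an end of SLC23A3, a solute carrier. RPA2 had 7.47, 5.18 and 6.31, and the region shared by PRKDC and MCM4 had 4.59, 4.39 and 3.39.

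Of 38 genes of the p53 pathway and cell cycle inhibitors, 5 (13.2%, against 15.8% of all genes) were at a narrow region. They were CDKN1A, CDKN2D, FDXR, PLK3 and RRM2B. PLK3, a polo-like kinase, had RNF2 at 6.17 and 7.08 and RING1 at 6.15, and ranked 14 of 2528. In the list, 4 genes were at regions with RING1 in both sets.

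Of 54 Polycomb genes 11 (20.4%, against 15.8% of all genes) were at a narrow region and 5 at regions with RING1 in both sets. The variant PRC1 subunits E2F6, MGA, MAX, AUTS2, FBRS and WDR5 were counted, as were CBX2, CBX6, CBX7 and PHC2 of canonical PRC1 and EZH1 of PRC2. E2F6 had RNF2 at 7.27 and 5.39 and RING1 at 5.62, and PHC2 had 4.87, 4.33 and 4.41. The RING1 gene had no peak in any of the 4 lists, the RNF2 gene had peaks of both proteins in set A only, and neither was at a consolidated region. Of 13 genes of H2A deubiquitination, USP3 and MBD6 were counted (15.4%).

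Markers of the labelled cell type were more often at wide regions than at narrow regions at gene ends. Of 40 neural progenitor genes 5 (12.5%, against 15.8% of all genes) were at a narrow region. Wide regions held 15, regions with RING1 in both sets 8, and 12 were at no consolidated region. The rule excludes the wide regions and those with RING1 in both sets, so nothing is read from the 12.5%. The 5 were DLL3, JAG1, NOTCH1, LIN28A and PROM1. DLL3 and JAG1, ligands of the NOTCH pathway, had RNF2 at 7.80 and 4.14 and at 4.70 and 3.62, and NOTCH1 had 4.44 and 3.76. Pluripotency genes were counted in 3 of 24 cases (CRIPTO, KLF2 and LIN28A) and germline genes in 4 of 40 (CPEB1, MEIOC, TDRKH and ZBTB32). Binding lists do not report expression, so the cell type could not be checked against its markers.

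**Figure D4:**
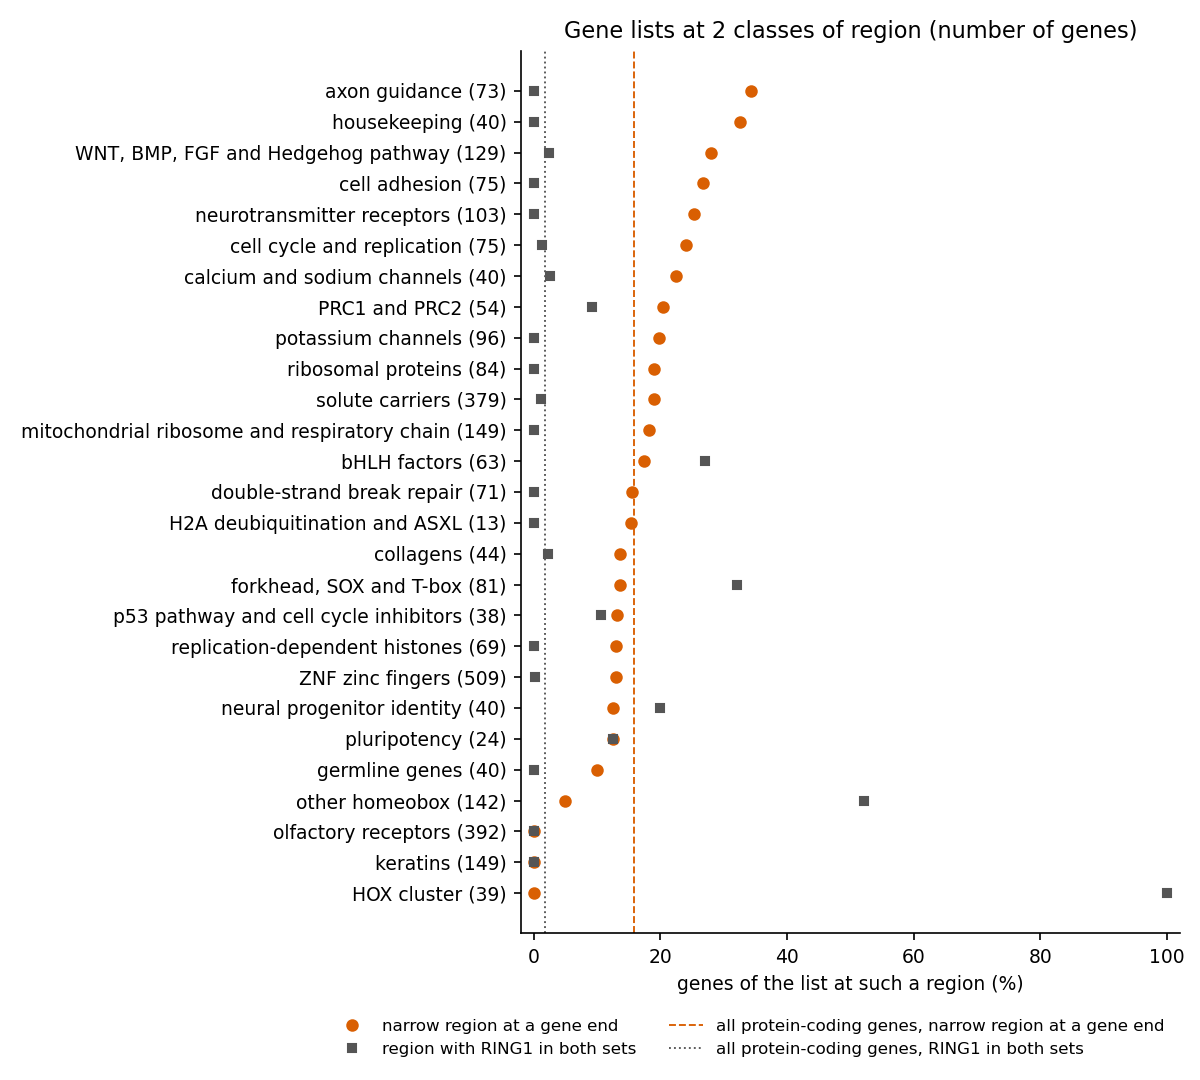
Share of the genes of 27 lists (x axis in percent, number of genes in brackets) at narrow regions at gene ends (circles) and at regions with RING1 in both sets (squares); the vertical lines give the shares of all 20037 protein-coding genes. Axon guidance genes (34.2%) stand highest for the narrow regions at this setting (housekeeping genes do with transcription starts only), and HOX genes have 0% there and 100% at regions with RING1 in both sets.

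Promoters at the narrow regions were rich in CpG, as were bound promoters in general. The ratio of observed to expected CpG in 300 bases had a median of 0.852 over 2580 genes at narrow regions with a listed start, with quartiles of 0.720 and 0.957. It was 0.806 over 240 genes at regions with RING1 in both sets, 0.855 over 3924 genes that had set A peaks of RING1 and of RNF2 but no consolidated region, 0.363 over 6150 genes with no peak in any list, and 0.761 over all 15842. Median GC content was 67.7% at narrow regions, 63.5% at regions with RING1 in both sets, 66.3% for genes with set A peaks only and 55.3% for genes without a peak. Promoters counted as CpG-rich, with a ratio of at least 0.6 and a GC content of at least 50%, made up 84.3% at narrow regions, against 77.9%, 84.1% and 33.1% in these 3 groups and 63.1% overall. Genes at narrow regions were thus close in CpG to genes with peaks in set A alone.

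**Figure D5:**
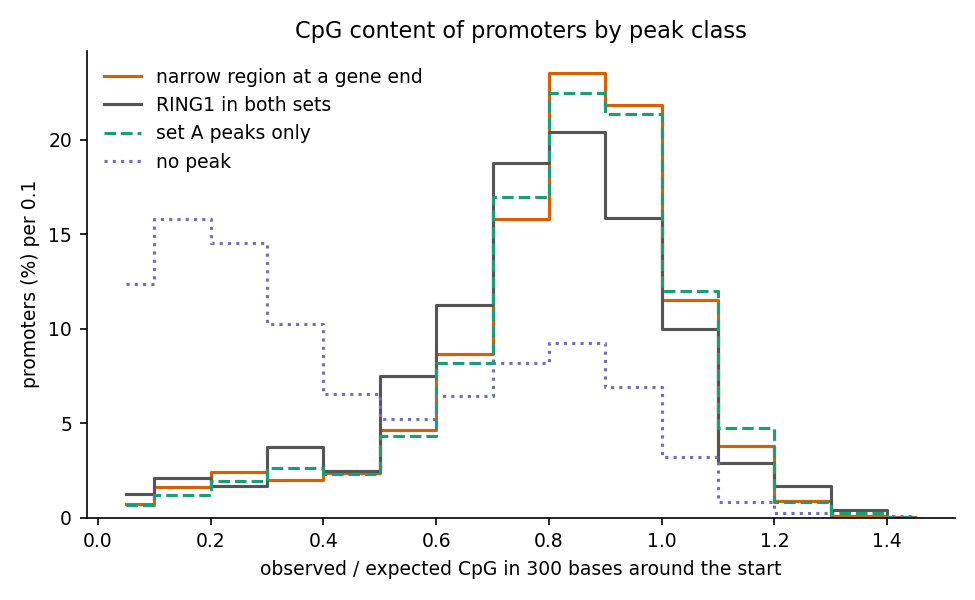
Observed over expected CpG in 300 bases around the transcription start (x axis), as the percentage of promoters per step of 0.1, for genes at narrow regions at gene ends, at regions with RING1 in both sets, with RING1 and RNF2 of set A but no consolidated region (set A peaks only), and with no peak. The first 3 lines lie close together, with medians of 0.852, 0.806 and 0.855, and the fourth has a median of 0.363.

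Because unbound genes often lack CpG, the list shares were also taken over genes with a CpG-rich promoter alone. Of 9996 such genes 2175 had a narrow region, a share of 21.8%. Axon guidance genes then stood at 40.9% (18 of 44), housekeeping genes at 34.4% (11 of 32) and WNT, BMP, FGF and Hedgehog genes at 25.8% (17 of 66). Potassium channels stood at 29.7% (11 of 37) and ZNF genes at 14.5% (48 of 332). Neurotransmitter receptor genes, at 23.1% (9 of 39), and cell cycle and replication genes, at 23.6% (13 of 55), were near the 21.8%. Polycomb genes, at 19.5% (8 of 41), and repair genes, at 13.2% (7 of 53), stood below the 21.8%, whereas over all genes of the list the Polycomb genes stood above the background and the repair genes just under it.

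Short motifs were counted in the 300 bases on both strands. The letters TTCCCGC, bound by E2F factors including E2F6, occurred in 12.02% of promoters at narrow regions, 7.50% at regions with RING1 in both sets and 8.57% of all promoters. TGCGCA, part of the NRF1 site, occurred in 13.4%, 5.42% and 10.8%, and CCGGAAG, an ETS site, in 14.0%, 7.08% and 14.2%. The SP and KLF letters GGGCGG occurred in 75.3%, 62.9% and 58.3%. TATAAA, the TATA box, was rarer at narrow regions, with 4.73% against 10.4% and 9.75%. TTCAGCACC, part of the REST site, was in 7 of 2580, 5 of 240 and 62 of 15842 promoters (0.271%, 2.08% and 0.391%). These counts are too few to compare. The CCAAT letters occurred in 38.7%, 43.8% and 36.4%.

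The same shares were taken within CpG-rich promoters. TTCCCGC occurred in 13.1% of 2175 promoters at narrow regions, 8.56% of 187 at regions with RING1 in both sets and 11.8% of all 9996. TGCGCA occurred in 15.4%, 6.42% and 15.3%, and CCGGAAG in 15.6%, 6.42% and 19.9%. GGGCGG occurred in 82.8%, 70.1% and 79.4%, and CCAAT in 39.5%, 44.9% and 35.2%. TATAAA occurred in 3.95%, 8.56% and 4.10%, and TTCAGCACC in 5, 3 and 34 of these promoters. Narrow regions were thus close to all CpG-rich promoters for the E2F, NRF1 and TATA letters and below them for the ETS letters. They stood a little above them for the SP and KLF letters and the CCAAT letters. For GGGCGG the distance was smaller than over promoters of any CpG content. A match of letters is not a bound site.

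Of the miRNA hairpins in the RefSeq table, 76 overlapped a consolidated region, 29 of them in 27 narrow regions at gene ends. The narrow class makes up 59.4% of all consolidated regions and 5.43 of their 16.9 Mb. No preference for or against hairpins is read from the count. The 19 hairpins in regions with RING1 in both sets included MIR10A, MIR10B and the MIR196 genes of the HOX clusters. Among the 29 were well-known miRNAs, and 4 are shown, chosen after the values were seen. The hairpin of each overlaps a narrow region at a gene end. The seed, bases 2 to 8, is in capitals.
hsa-let-7i-5p (chr12:62603691-62603712, plus strand): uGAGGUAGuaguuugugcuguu
hsa-miR-191-5p (chr3:49020672-49020694, minus strand): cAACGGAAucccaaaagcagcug
hsa-miR-34b-5p (chr11:111512950-111512972, plus strand): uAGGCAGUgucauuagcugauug
hsa-miR-378a-3p (chr5:149732867-149732888, plus strand): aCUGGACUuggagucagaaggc
The region with MIRLET7I, a let-7 family gene, counted for MON2 and had RNF2 at 7.55 and 5.18 and RING1 at 6.42. MIR191 lies in a region that counted for DALRD3, IMPDH2 and NDUFAF3, with 5.71, 4.86 and 4.68. MIR34B and MIR34C, a p53-responsive cluster, lie in a region that counted for BTG4 and HOATZ, with 4.61, 3.85 and 3.70. MIR378A lies in the region of PPARGC1B with 4.71, 3.99 and 3.94. The first of these stood above the members' medians in all 3 lists, and the region of MIR34B stood below them for RNF2 in set A and RING1.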

How the data were processed

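The 30 samples are CUT&RUN libraries of H9-derived neural progenitor cells, of which 4 wildtype peak lists (RING1 and RNF2, 2 each) and 1 consolidated region file were used. Per the submitters' processing notes, build hg38 was used with MACS2 2.2.9.1, the aligner BWA 0.7.17, Picard 2.8.1 and SAMtools 1.9, next to deepTools 3.5.2 and bedtools 2.30.0; no source used here gives the control or the options. The deposited fold enrichment per peak is a ratio of signal to background as the authors' peak caller gave it, and the deposited significance is −log10 of the q-value. Lists were taken as called per library. No source used here gives the read depth, so no counting interval was made, and a site without a peak may still be bound.

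From these, chromosomes 1 to 22, X and Y were kept and overlap meant at least 1 bp. Every consolidated region had the ends, within 1 bp, of a union of overlapping peaks of the 4 lists, and 4239 of 4255 had RNF2 of both sets. Starts and promoters came from RefSeq (GRCh38.p14); a gene with several listed starts was given the one nearest its annotated 5′ end for composition and motifs. All members of the 27 gene lists matched a gene; symbols that patterns had caught wrongly (ENG, ISLR, PAXX, PDXK and PDXP among homeobox genes, CBX3 and CBX5 among Polycomb genes) were taken out after the data were seen. No test was run, since 2 lists per antibody allow none between replicates and the rule used the calls.

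The member rule, the gene lists and the motifs were chosen with earlier results of these data known. Regions and genes named are the 12 highest and 5 lowest by the smaller RNF2 value, the 5 highest by RING1, up to 4 genes per list in the same order, 3 regions on each side of the width limit, the 5 regions at most genes, and RING1 and RNF2; genes counted in a list are named without values, and some that the rule names are given by count. Alternatives were other windows, widths, overlaps and q limits, each list left out, and, chosen after seeing the data, CpG-rich promoters only and regions whose genes all have a listed start. Overlap, distance and composition steps were tested on simulated data. Tables were made with pandas 2.3.3 and numpy 2.4.6 under Python 3.11.15, intervals with SciPy 1.17.1 and plots with matplotlib 3.10.9.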

Additional observations from a re-analysis of the deposited data

How the results depend on the processing

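The number of narrow regions at gene ends, 2528, stayed within 1.5 times of itself under windows of 1 kb (2481) and 5 kb (2645), width limits of 3000 bp (2008) and 10000 bp (2803), a RING1 cover of 50% of the region (1734) and chromosomes 1 to 22 only (2486). It was 547 when RING1 peaks of set A needed a −log10 q of at least 5, so the count rests on weak RING1 calls. Without the RING1 list of set A or of set B, chosen after seeing the data, it was 2817 or 2546.

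Median RNF2 fold enrichment moved beyond its 95% interval over regions, by little, for a width under 3000 bp (4.80 and 3.75 for sets A and B), and with each RING1 list left out ran from 4.72 to 4.87 for set A and from 3.76 to 3.79 for set B. The median of the smaller of both sets was 3.74, and 3.78 to 4.86 with one RNF2 list left out. The share at a start was 79.1%, and 95.2% over regions whose genes all have a listed start. The median CpG ratio was 0.852, and 0.863 over promoters that a region overlaps.

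Of the 27 gene lists, 9 stood above and 11 below the share of all genes under all settings run (both windows, starts only, CpG-rich promoters only), and 7 changed side. No paired analysis was possible because no result comes from a test between groups; the lists of both antibodies are paired only by the number in their names, which the labels tie to no replicate. Read depth, which limits what a missing peak means, is given by no source used here.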
